A study of Mus musculus with 4 samples.

Results

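The genes described here are 10 genes of antigen presentation, chosen by name from the 32285 genes of the count matrices and followed through every class of nuclei and every library. They are *B2m*, *H2-K1*, *H2-D1*, *Nlrc5*, *Tap1*, *Tap2* and *Psmb8* of the MHC class I route and *H2-Aa*, *H2-Ab1* and *Cd74* of the class II route. They were chosen for their levels across vessel, microglial and other classes, so those levels are given as a description, with no test. *H2-K1*, *H2-D1*, *H2-Aa*, *H2-Ab1*, *Tap1*, *Tap2* and *Psmb8* lie on mouse chromosome 17 (GRCm38), between position 33996017, in *H2-K1*, and position 35267499, in *H2-D1*. *B2m* lies on chromosome 2 (122147686 to 122153083) and *Nlrc5* on chromosome 8 (94434356 to 94527272), both on the plus strand.

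The values came from single-nucleus RNA sequencing of whole brain of 5XFAD mice, a transgenic line in which the neuronal *Thy1* promoter drives human transgenes and amyloid plaques form. Every mouse carried these transgenes, was aged 7 to 10 weeks and received 6.55e9 extracellular vesicles (EVs) intravenously. The EVs were low in phosphatidylethanolamine (PE-low-EV, 2 libraries) or had phosphatidylethanolamine raised (PE-high-EV, 2 libraries), and, per the methods of the study, each library pooled the brains of 2 female mice. Libraries of wild-type or untreated mice were not analysed here, so the levels below have no baseline without EVs. The comparison of PE-high-EV with PE-low-EV therefore asks whether the lipid content of the EVs went with a change in these genes, and nothing else.

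MHC class I molecules sit on the surface of nucleated cells and show peptides from inside the cell to CD8 T cells. H2-K1 and H2-D1 are heavy chains and B2m is the light chain they need to fold. The immunoproteasome, of which Psmb8 is a catalytic subunit, cuts proteins into peptides, and the transporter formed by Tap1 and Tap2 moves these into the endoplasmic reticulum. Nlrc5 is the transactivator of the class I genes, and interferon induces the whole route. MHC class II molecules (H2-Aa and H2-Ab1 are the alpha and beta chains of I-A) are loaded in endosomes with the help of the invariant chain Cd74, are driven by Ciita, and are a property of professional antigen-presenting cells. In the healthy brain, class II is known from the macrophages at its borders, while parenchymal microglia carry little.

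Nlrc5 and Ciita act through a module of short elements shared by class I and class II promoters. RefSeq promoters (GRCm38.p6) were found for 6 of the 10 members, and the 250 bases before each start were searched on both strands. The search was for the core of the X2 box (TGACG) and the core of the Y box (ATTGG). It also took the repeats bound by interferon regulatory factors (GAAA, any pair of bases, then GAAA, and, as a separate pattern, the shorter GAANNGAAA) and a kappa B motif (GGGNNTTCC). These letters were found in 17.8%, 33.8%, 2.98%, 6.31% and 4.98% of 32851 promoters, respectively. An X2 core followed by a Y core on the gene's own strand at a gap of 10 to 30 bases was in 102 of them (0.31%). It was in *B2m*, *H2-K1*, *H2-D1* and *H2-Aa*, with a gap of 20 bases in the class I genes and 21 in *H2-Aa*. The stretches are shown because they are what the light chain, the heavy chains and a class II gene have in common, written 5′ to 3′ with both cores in capitals. They lie at chr2:122147609-122147638 (plus strand), chr17:34000359-34000388 (minus strand), chr17:35262993-35263022 (plus strand) and chr17:34287867-34287897 (minus strand), in this order.
B2m: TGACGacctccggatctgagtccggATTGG
H2-K1: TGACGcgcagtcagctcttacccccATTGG
H2-D1: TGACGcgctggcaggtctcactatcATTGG
H2-Aa: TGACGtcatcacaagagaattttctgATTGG

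The wider windows of *B2m* (chr2:122147437-122147685, plus strand), *H2-K1* (chr17:34000348-34000597, minus strand) and *H2-Aa* (chr17:34287824-34288073, minus strand) follow, with every motif match in capitals. The *B2m* window held the longer interferon repeat once. The *H2-K1* window held the shorter repeat on the opposite strand and a kappa B match, and the *H2-Aa* window held a kappa B match and no interferon repeat. In the windows of *Tap1* and *Psmb8* no ordered pair was found. These windows and that of *H2-D1* lie wholly in annotated exons, and the *H2-D1* stretch lies after the gene start of the other annotation used (GENCODE M21, position 35262730). A match is a run of letters, and binding was not measured.
B2m promoter: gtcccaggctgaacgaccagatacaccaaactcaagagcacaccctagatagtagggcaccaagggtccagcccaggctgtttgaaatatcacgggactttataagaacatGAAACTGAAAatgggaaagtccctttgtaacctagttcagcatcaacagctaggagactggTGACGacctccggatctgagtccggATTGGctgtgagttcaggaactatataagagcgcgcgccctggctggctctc
H2-K1 promoter: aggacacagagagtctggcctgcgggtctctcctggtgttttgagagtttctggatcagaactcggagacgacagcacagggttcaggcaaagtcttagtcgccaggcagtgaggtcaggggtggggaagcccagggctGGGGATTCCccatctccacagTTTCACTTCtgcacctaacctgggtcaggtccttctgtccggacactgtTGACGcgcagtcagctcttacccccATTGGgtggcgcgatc
H2-Aa promoter: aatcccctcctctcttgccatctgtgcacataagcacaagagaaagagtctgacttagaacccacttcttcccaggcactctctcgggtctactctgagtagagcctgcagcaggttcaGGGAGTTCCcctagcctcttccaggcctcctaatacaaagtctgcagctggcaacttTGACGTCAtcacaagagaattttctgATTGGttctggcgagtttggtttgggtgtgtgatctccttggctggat

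The libraries held 29472021 to 43272337 unique molecular identifiers (UMIs, counts of distinct captured molecules). After filtering, 36259 nuclei remained, of which 34058 fell into 15 classes named from marker genes, with the members and the interferon genes left out of the clustering. Names carry the ending "-like" because they rest on markers. Nuclei with up to 15% mitochondrial UMIs were kept, where the study states a limit of 3%, because at 3% the 4 libraries together held a single endothelial-like nucleus. Free RNA was estimated at 28.8% to 42.2% of the UMIs of endothelial-like nuclei and 45.5% to 49.8% of those of microglia-like nuclei, so each level is set beside that of near-empty barcodes of the same library. Levels are CPM, the UMIs of a gene divided by all UMIs of the class in that library and multiplied by 1000000, with an exact 95% Poisson interval that covers counting error only.

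Pairs of libraries shared 15 to 33 of their kept barcodes. PE-low-EV replicate 1 stood apart from the other 3 libraries in most of its vessel nuclei. Clustered without centring, 278 of its nuclei formed a cluster with 0, 2 and 4 nuclei of the others, and none joined the cluster that held 153, 160 and 163 of theirs. A further cluster of 65 vessel nuclei was mixed, with 27 of its nuclei beside 9, 16 and 13 of the others. The summed level of 19 interferon response genes in endothelial-like nuclei was 874 CPM in PE-low-EV replicate 1, 34928 CPM in PE-low-EV replicate 2, 26875 CPM in PE-high-EV replicate 1 and 29107 CPM in PE-high-EV replicate 2. *Iigp1*, *Gbp5* and *Cxcl10*, genes of the interferon response, were among the 10 leading genes of the class beside the vessel genes *Flt1*, *Slco1a4* and *Ly6c1*. This split runs across the treatment groups, so the treatment comparisons in vessel and microglia-like nuclei are given with and without that library.

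Endothelial-like nuclei (157, 83, 100 and 100 per library in the order PE-low-EV replicates 1 and 2, PE-high-EV replicates 1 and 2) carried the highest median levels of 6 of the 7 class I members, and *Tap2* was highest in the mixed class described further on. The light chain gene *B2m* stood at 384 CPM (54 UMIs, 288 to 501) in PE-low-EV replicate 1, 1222 CPM (128 UMIs, 1019 to 1453) in PE-low-EV replicate 2, 834 CPM (62 UMIs, 639 to 1069) in PE-high-EV replicate 1 and 573 CPM (39 UMIs, 407 to 783) in PE-high-EV replicate 2. The lowest and the highest library thus both belonged to the PE-low-EV group, and the PE-high-EV libraries lay between them. Near-empty barcodes held 70.8 to 83.8 CPM of *B2m*. The group means were 803 ± 593 CPM for PE-low-EV and 703 ± 184 CPM for PE-high-EV (SD, n = 2 libraries each).

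The heavy chain genes had the same lowest library. *H2-K1* was at 156, 525, 430 and 543 CPM (22, 55, 32 and 37 UMIs) in the same order. *H2-D1* was at 142, 506, 430 and 294 CPM (20, 53, 32 and 20 UMIs). Near-empty barcodes held 16.4 to 19.8 CPM of *H2-K1* and 20.6 to 26.8 CPM of *H2-D1*, below every endothelial-like value. The treatment groups overlapped for both heavy chains.

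*Nlrc5*, the class I transactivator, was at 14.2 CPM (2 UMIs) in PE-low-EV replicate 1, against 439, 255 and 499 CPM (46, 19 and 34 UMIs) in the others. Its pooled level in those 3 libraries was 28.2 times that of PE-low-EV replicate 1 (exact 95% interval of the ratio 7.59 to 236, counting error only). The same ratio was 2.41 (1.79 to 3.31) for *B2m*, 3.21 (2.03 to 5.30) for *H2-K1* and 2.99 (1.84 to 5.09) for *H2-D1*. The interval of the transactivator lay above those of the light and heavy chains, and the summed interferon list stood at 35.3 (29.6 to 42.6).

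The genes that make and move peptides had the same lowest library. *Tap1* had no UMI in PE-low-EV replicate 1 and 24, 6 and 6 UMIs in the others (229, 80.7 and 88.1 CPM), which puts the pooled level of these at least 6.83-fold higher against a floor of 3 counts in PE-low-EV replicate 1. *Tap2*, its partner, was at 49.8, 191, 80.7 and 132 CPM (ratio 2.84, 1.25 to 7.59). *Psmb8* was at 78.2, 286, 134 and 206 CPM (ratio 2.79, 1.44 to 5.92). All 7 class I members were lowest in PE-low-EV replicate 1, where 30.7% of 1997 genes tested in this class were lowest in that library. The count stayed at 7 of 7 with doublets removed, with free RNA subtracted or with nuclei taken by a marker gate, and was 6 of 7 in nuclei with at least 1000 UMIs, with *Tap1* tied at 0 CPM in PE-high-EV replicate 2, and 5 of 7 at a mitochondrial limit of 5%, which left 4 to 15 nuclei a library and put *Tap1* and *Psmb8* level at 0 CPM with other libraries.

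**Figure D1:**
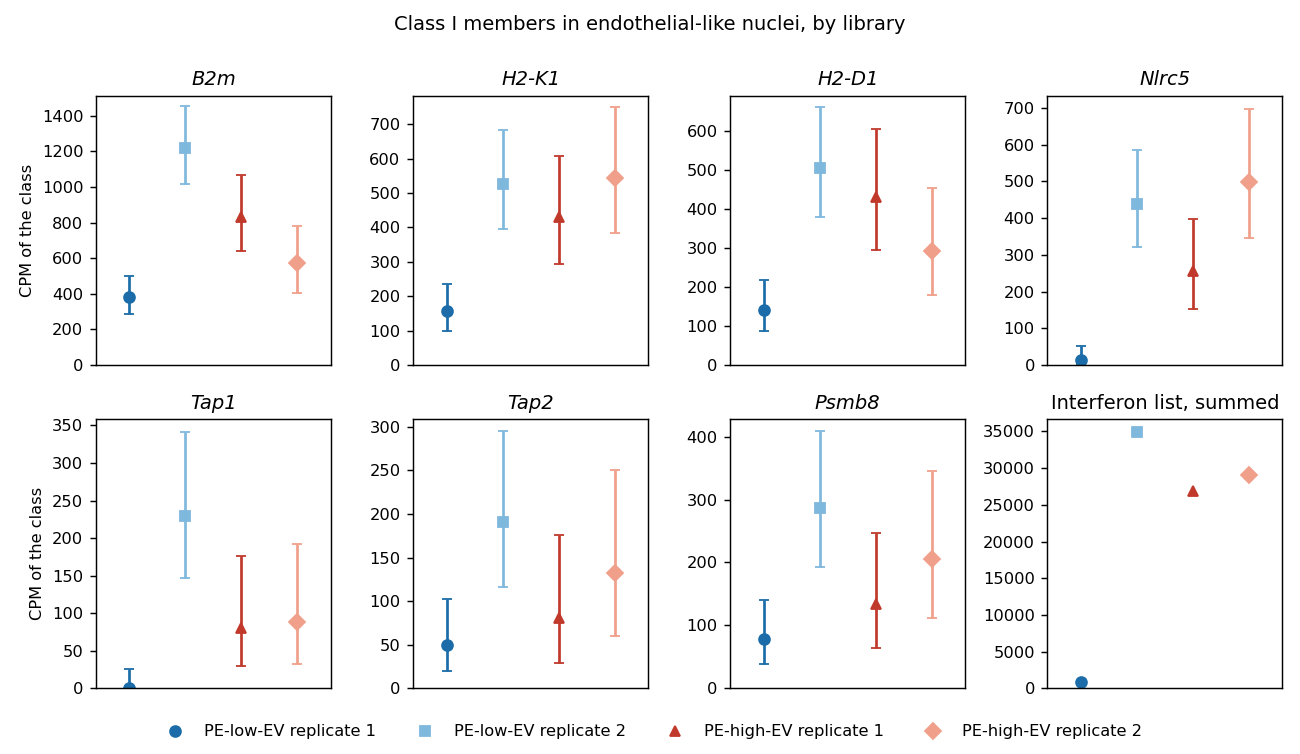
Level of 7 class I genes and the summed level of 19 interferon response genes in endothelial-like nuclei of each library, as CPM on a linear axis. Bars are exact 95% Poisson intervals for the 7 genes, and the summed list is drawn without bars. PE-low-EV replicate 1 is lowest in each panel, with *B2m* at 384 CPM against 573 to 1222 CPM in the other 3 libraries.

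The wider class I route, a list of 24 genes that also holds the other heavy chains, the immunoproteasome and the loading chaperones, was followed in the same nuclei. In endothelial-like nuclei 17 of the 24 lay above near-empty barcodes in all 4 libraries, where 14.2% of all 14350 genes with a UMI did. *Psmb10*, another immunoproteasome subunit, was at 64.0, 258, 229 and 162 CPM, and *Tapbp*, which holds the heavy chain at the transporter, at 56.9, 191, 296 and 338 CPM. *H2-Q4*, a non-classical heavy chain gene, was at 21.3, 153, 94.1 and 162 CPM. For 16 of the 24, PE-low-EV replicate 1 was the lowest library. The 8 others were the chaperones *Calr*, *Canx* and *Pdia3*, the trimming enzyme *Erap1*, the proteasome activator subunits *Psme2* and *Psme3*, and *H2-M3* and *H2-T23*. *Calr* for example was at 235, 229, 215 and 162 CPM.

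Markers of microglia, macrophages and T cells were low in these nuclei. The summed level of 9 microglial marker genes was 191 to 282 CPM in endothelial-like nuclei, below the 342 to 393 CPM of near-empty barcodes. The 7 perivascular macrophage markers summed to 0 to 14.7 CPM and the 7 T cell markers to 0 to 14.7 CPM, with at most 1 of 7 detected in a library. The lists of dendritic cell markers (6 genes, 88.1 to 142 CPM) and B cell markers (5 genes, 686 to 1358 CPM) lay above near-empty barcodes (11.01 to 14.2 and 8.99 to 14.4 CPM). The dendritic value was *Zbtb46* alone (48 UMIs), with *Flt3*, *Itgax*, *Xcr1* and *Clec9a* at 0, and 395 of the 396 UMIs of the B cell list were *Ebf1*, with *Ms4a1* at 0. The 9 mural markers summed to 1307 to 1861 CPM against 42.9 to 82.5 CPM in near-empty barcodes, and the part of mural RNA in the class I levels was not tested.

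No member passed the test of PE-high-EV against PE-low-EV in any class (edgeR quasi-likelihood test on summed counts, adjusted p below 0.1 over all genes of a class). The test covered 12 classes and gave 22 values for 6 members, with log2 fold changes from -0.38 to 0.77. An unadjusted p below 0.05 occurred for 1 of the 22, *B2m* in striatal projection neuron-like nuclei (log2 fold change 0.66, edgeR adjusted p = 0.893), and DESeq2 gave 0 of 22 at either threshold. Over all genes, 3 of 76745 tests were called, 1 in neuroblast-like nuclei (0.0376% of 2659) and 2 in newly formed oligodendrocyte-like nuclei (0.124% of 1612), and 0% in each of the other 10 classes. Left without PE-low-EV replicate 1, striatal projection neuron-like nuclei had 6.11% of 13137 genes called, with *B2m* among them (1 of 3 members tested, log2 fold change 1.04, edgeR adjusted p = 0.0725). *B2m* in striatal projection neuron-like nuclei was at 6.35 to 13.9 CPM over the libraries, under the level of near-empty barcodes. Free RNA was estimated at 27.8% to 35.4% of the UMIs of this class. In simulated endothelial-like counts with 4-fold changes, the same test recovered 95% of 199 changed genes. The simulation had no library that stands apart and gave every gene the same small spread, which was not taken from these data. Its share is therefore not the power of the test in these libraries.

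In endothelial-like nuclei 0 of 1997 genes were called (0%; 24 had an unadjusted p below 0.05). The log2 fold changes, PE-high-EV over PE-low-EV, were -0.17 (SE 0.64) for *B2m*, 0.54 (SE 0.64) for *H2-K1* and 0.19 (SE 0.68) for *H2-D1*. They were 0.77 (SE 1.26) for *Nlrc5*, -0.12 (SE 0.79) for *Tap2* and -0.05 (SE 0.70) for *Psmb8*, each with an adjusted p of 0.998 in edgeR. The standard errors exceeded every one of these changes. *Tap1* and the class II members did not reach the count filter with all 4 libraries. Of the 24 class I genes, 14 were tested, 0 were called and the median log2 fold change was 0.27, beside 0.06 over all genes tested.

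These values turned on which PE-low-EV library was used. Without PE-low-EV replicate 2, so that PE-low-EV replicate 1 alone stood for its group and its spread was assumed to be that of the other group, 321 of 2144 genes were called (15%), and 3 of the 5 members tested were among them. *Nlrc5* was then higher in PE-high-EV by a log2 fold change of 4.58 (edgeR adjusted p = 4.45e-11), *H2-K1* by 1.62 (adjusted p = 0.00104) and *H2-D1* by 1.34 (adjusted p = 0.00927). *B2m*, at 0.87, did not pass (adjusted p = 0.104). Of the interferon list 16 of the 17 genes tested were called higher in the same fit, as were 6 of 13 class I genes. Without PE-low-EV replicate 1, 0 of 1981 genes were called and the members lay below 0, with *Tap1*, which passed the count filter in this fit, at -1.43 (edgeR adjusted p = 0.493), *Tap2* at -0.85, *B2m* at -0.79 (adjusted p = 0.536), *Psmb8* at -0.76, *H2-D1* at -0.47, *Nlrc5* at -0.23 and *H2-K1* at -0.11. The part of that library in the treatment difference cannot be told apart from the difference itself with 2 libraries a group.

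**Figure D2:**
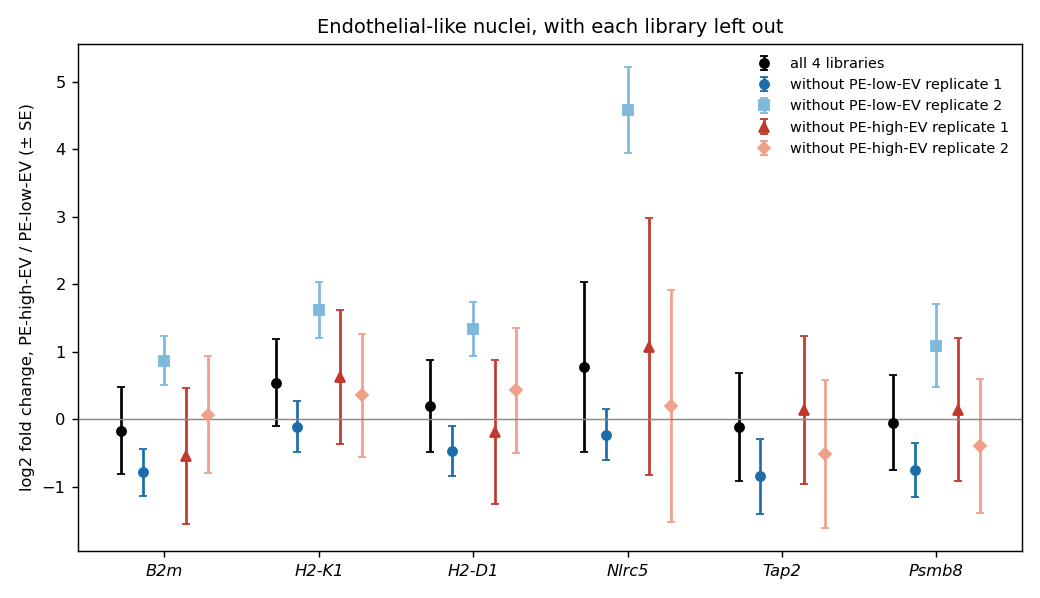
Log2 fold change of PE-high-EV over PE-low-EV with its standard error (bars) for the class I genes tested in endothelial-like nuclei, from all 4 libraries and with each library left out in turn. With all libraries the values lie from -0.17 to 0.77, and without PE-low-EV replicate 2 *Nlrc5* reaches 4.58.

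The class named mixed endothelial and mural-like, 166 nuclei with markers of both, had the same lowest library in other nuclei of the same samples. *B2m* was at 364, 873, 702 and 698 CPM, and *Nlrc5* at 8.89, 397, 214 and 243 CPM (1 UMI in the first). All 7 class I members were lowest in PE-low-EV replicate 1 there too, where 33.1% of the 957 genes that passed the count filter were. Of the members, *B2m*, *Nlrc5*, *H2-K1* and *H2-D1* passed that filter. The summed interferon response list was at 1075, 26831, 22203 and 25293 CPM. Between the treatments 0 of 957 genes were called (0%), and *B2m* had a log2 fold change of 0.18 (SE 0.52, edgeR adjusted p = 0.999). Without PE-low-EV replicate 1, 2 of 766 genes were called (0.261%), and without PE-low-EV replicate 2, 115 of 776 (14.8%), among them 13 of 14 interferon response genes tested, all higher in PE-high-EV. No member was called in either fit, with *B2m* at -0.31 and 0.77. *Nlrc5* was at -0.79 in the first and was not tested in the second.

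Other vessel classes were small. Mural-like nuclei (60) held 11 UMIs of *B2m*, above near-empty barcodes in each library. Here PE-low-EV replicate 1 was the highest library, at 375 CPM, against 176 to 257 CPM in the others. None of the 7 class I members was lowest in that library alone in mural-like nuclei. Fibroblast-like nuclei (122) held 15 UMIs of *B2m*, at 35.6 CPM (2 UMIs) in PE-low-EV replicate 1 and 97.8 to 181 CPM in the others. Counts of this size leave intervals of several fold, and no order among these libraries is read from them.

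Microglia-like nuclei (283, 118, 406 and 345 per library) held far less class I RNA than vessel nuclei. *B2m* was at 89.1 CPM (20 UMIs, 54.4 to 138), 147 CPM (18 UMIs, 87.0 to 232), 115 CPM (26 UMIs, 75.1 to 168) and 148 CPM (28 UMIs, 98.1 to 213). The lowest of these intervals includes the 77.3 CPM of near-empty barcodes of the same library. *B2m* in PE-low-EV replicate 1 was thus not above the near-empty level beyond counting error. Free RNA was estimated at 48.7% of the UMIs of microglia-like nuclei in that library. Subtracting free RNA in each library raised the mean *B2m* level over libraries, as given in the section on processing. The part of free RNA in the level of that library alone was not tested. *H2-K1* was at 26.7, 40.8, 44.2 and 58.0 CPM, *H2-D1* at 44.5, 16.3, 22.1 and 47.5 CPM, and *Nlrc5* at 4.45, 16.3, 8.84 and 10.54 CPM (1, 2, 2 and 2 UMIs). For *H2-D1* the values lay on both sides of those of near-empty barcodes. The mean of *B2m* over libraries, 125 CPM, was 49.8 CPM in the microglia-like nuclei with at least 1000 UMIs, below near-empty barcodes.

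The microglial identity of these nuclei was clear, with the 9 markers at 6074 to 6275 CPM. The summed interferon list stood at 330, 514, 402 and 385 CPM, a range far narrower than in vessel nuclei. Of the 7 class I members 5 were lowest in PE-low-EV replicate 1, among them *Nlrc5*, *Tap1* and *Psmb8*, with 7, 4 and 7 UMIs in the whole class. Of the 5045 genes that passed the count filter, 21.3% were lowest in that library. Only *B2m* of the members passed the filter here, so these shares are not of like genes and nothing is read from them. Of the 24 class I genes 5 (*B2m*, *Erap1*, *H2-K1*, *H2-T23* and *Nlrc5*) lay above near-empty barcodes in all 4 libraries, a share of 23.8% over all 16680 genes. Between the treatments *B2m* differed by a log2 fold change of 0.24 (SE 0.34, edgeR adjusted p = 0.969), and 0 of 5045 genes were called (0%). This value was -0.14 without PE-low-EV replicate 1, with 25 of 5471 genes called (0.457%), and 0.58 without PE-low-EV replicate 2, with 19 of 6055 called (0.314%), and no member was among the genes called.

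Whether the treatment difference itself differed between endothelial-like and microglia-like nuclei was tested with an interaction term. No gene of 4388 was called (174 had an unadjusted p below 0.05), and for *B2m* the endothelial log2 fold change minus the microglial one came to -0.25 (SE 0.51, edgeR adjusted p = 1). In alternatives chosen after seeing the data, 0 members were called in each, with 11 genes called without PE-low-EV replicate 1, 79 without PE-low-EV replicate 2, 5 with free RNA subtracted and 3 in nuclei with at least 1000 UMIs. The value of *B2m* changed sign among them, at -0.66 and 0.44 without PE-low-EV replicates 1 and 2, -0.64 and 0.24 without PE-high-EV replicates 1 and 2, and 5.13 in nuclei with at least 1000 UMIs.

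**Figure D3:**
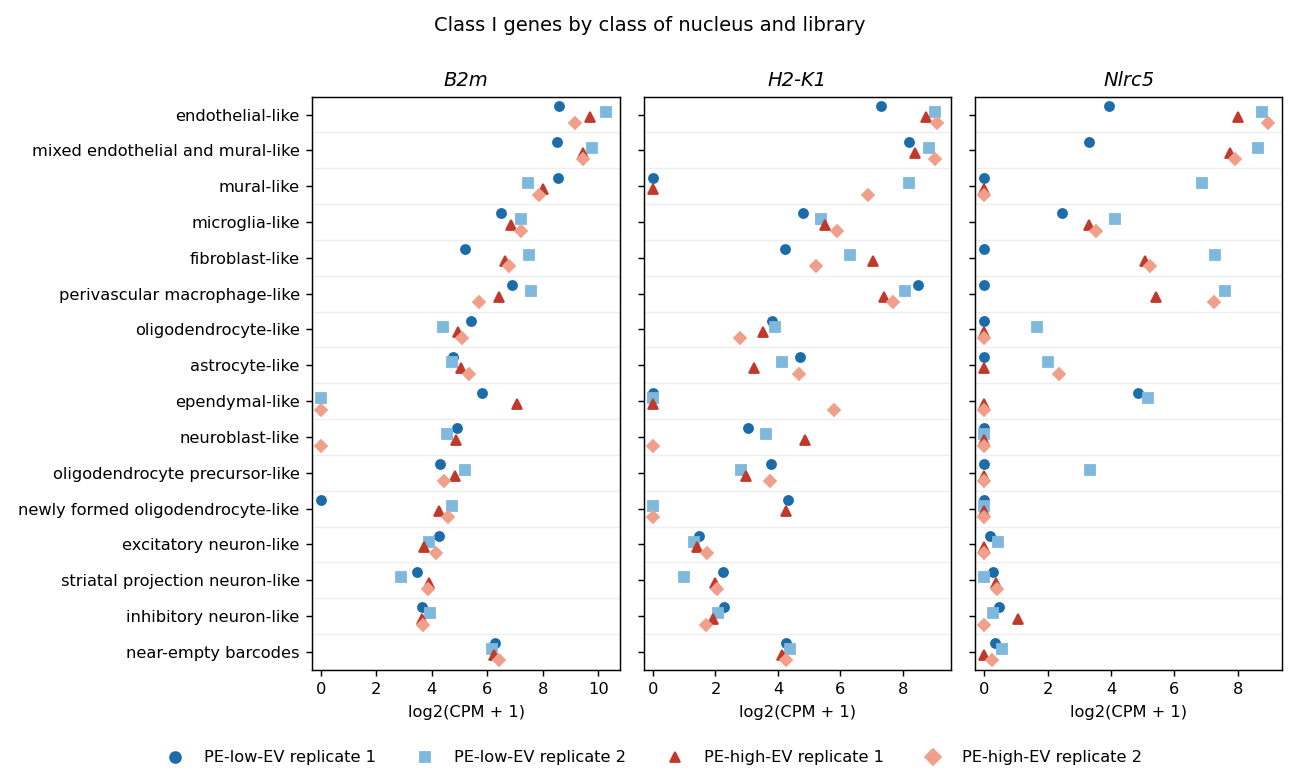
Levels of *B2m*, *H2-K1* and *Nlrc5* as log2(CPM + 1) in each class of nuclei and in near-empty barcodes, 1 point per library. Endothelial-like and mixed endothelial and mural-like nuclei are highest for *B2m*, and neuronal classes lie below the near-empty barcodes (70.8 to 83.8 CPM).

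The order of the classes was similar for the light chain and the heavy chains. By its median over libraries *B2m* was highest in endothelial-like nuclei (703 CPM), then in mixed endothelial and mural-like (700 CPM), mural-like (245 CPM), microglia-like (131 CPM), fibroblast-like (104 CPM) and perivascular macrophage-like nuclei (101 CPM). The endothelial-like, mixed and mural-like ranges overlapped in turn. The mural-like range (lowest 176 CPM) did not overlap the microglial one (highest 148 CPM). It rests on 11 UMIs in 60 nuclei, which leave intervals of several fold, so no gap between these 2 classes is read from it. The next ranges overlapped down to the perivascular macrophage-like class. Oligodendrocyte-like (31.3 CPM), astrocyte-like (29.4 CPM) and neuronal classes (11.7 to 15.3 CPM) lay below these. *B2m* in neurons was thus under the level of near-empty barcodes, with 6.35 to 18.1 CPM across the excitatory, inhibitory and striatal classes.

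*H2-K1* followed the same leading pair (medians 478 and 398 CPM), with perivascular macrophage-like nuclei next (236 CPM) and microglia-like nuclei at 42.5 CPM, which did not overlap the astrocyte-like range below them. *Nlrc5* was at 347 and 228 CPM in the leading pair and at 97.5 CPM in perivascular macrophage-like nuclei, with 0 to 1.10 CPM in the excitatory, inhibitory and striatal classes. No gene of the class I list lay above near-empty barcodes in all libraries in astrocyte-like nuclei or in these neuronal classes.

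Per nucleus the class I RNA was seen in a part of the endothelial-like class. A *B2m* UMI was present in 175 of 440 endothelial-like nuclei (39.8%, exact 95% interval 35.2 to 44.5%, median depth 798.5 UMIs) and in 89 of 1152 microglia-like nuclei (7.73%, 6.25 to 9.42%, median depth 594 UMIs). Excitatory neuron-like nuclei, at a median of 2182 UMIs, gave 3.65% as a level of background. Thinned to 500 UMIs, which leaves out 42 endothelial-like, 329 microglia-like and 21 excitatory neuron-like nuclei with fewer, the shares were 26.9%, 4.86% and 0.774%. These 3 classes kept their order at equal depth.

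Between libraries the thinned share of *B2m* in endothelial-like nuclei was 15.3%, 37.3%, 33.8% and 32.1%, and the unthinned share 28.0%, 74.7%, 37.0% and 32.0%, with 20 and 22 shallower nuclei left out of the thinned PE-high-EV values. For *Nlrc5* the unthinned shares were 1.27%, 34.9%, 18.0% and 26.0%, and the thinned ones 1.27%, 15.7%, 10.0% and 19.2%. PE-low-EV replicate 1 was lowest on either scale for both genes. At least 3 of the 7 class I members were detected together in 71 of 440 endothelial-like and 43 of 166 mixed endothelial and mural-like nuclei, and in 0 of 1152 microglia-like nuclei (median depths 798.5, 1276.5 and 594 UMIs). A count of 0 allows up to 0.26% of nuclei with such a detection at that depth, which is no limit on nuclei that carry the RNA.

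Class II RNA was found in other nuclei. Perivascular macrophage-like nuclei (10, 16, 27 and 16 per library, 69 in all) were led by *Mrc1* and *F13a1* and held 22 UMIs of *Cd74*. They also carried markers of neutrophils or monocytes (6 genes, 475, 765, 336 and 102 CPM, with *Plac8*, *Csf3r* and *Ccr2* at 13, 12 and 6 UMIs and *S100a8* and *S100a9* at 1 each) and of dendritic cells (6 genes, 38.2 to 237 CPM, 7 UMIs in all, with *Itgax*, *Xcr1* and *Clec9a* at 0), above near-empty barcodes (3.09 to 7.06 and 11.01 to 14.2 CPM). The B cell list (5 genes, 0 to 3 detected in a library) stood at 0 to 344 CPM, with 14 UMIs in all. Near-empty barcodes held 8.99 to 14.4 CPM of it. The microglial list (9 genes) stood at 765 to 2136 CPM, against 342 to 393 CPM in near-empty barcodes. The part of such cells in the class II counts was not tested. By library *Cd74* was at 0 CPM (0 UMIs of a class total of 8427), 459 CPM (12 UMIs), 294 CPM (7 UMIs) and 153 CPM (3 UMIs), and near-empty barcodes held 1.28 to 5.10 CPM. The lowest library was the one with the fewest nuclei, where a count of 0 allows up to 356 CPM. The 22 UMIs came from 9 of the 69 nuclei, against 5 of 1152 microglia-like nuclei (0.434%) and 1 of 440 endothelial-like nuclei (0.227%).

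*H2-Aa* had 4 UMIs in the perivascular macrophage-like class and *H2-Ab1* had 2. At least 2 of the 3 class II members were detected together in 5 of the 69 nuclei, against 2 of 1152 microglia-like nuclei. These nuclei also held class I RNA, with *H2-K1* at 356, 268, 168 and 204 CPM and *B2m* at 119, 191, 84.0 and 51.0 CPM (1, 5, 2 and 1 UMIs). Of the 24 class I genes *H2-K1*, *H2-D1* and *H2-Q7* lay above near-empty barcodes in all 4 libraries, as did 8.73% of 11117 genes. The treatment was not tested in this class, since fewer than 20 nuclei per library were left in 3 of the 4 libraries.

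In microglia-like nuclei *Cd74* had 9 UMIs in 5 of 1152 nuclei, at 22.3, 24.5, 4.42 and 0 CPM (5, 3, 1 and 0 UMIs). All 2 UMIs of *H2-Aa* and all 4 of *H2-Ab1* came from PE-low-EV replicate 1. Endothelial-like nuclei held 0 UMIs of *H2-Aa*, 1 of *H2-Ab1* and 1 of *Cd74*, also in the libraries with high class I levels. The class II transactivator gene *Ciita* had no UMI in endothelial-like, microglia-like or perivascular macrophage-like nuclei.

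**Figure D4:**
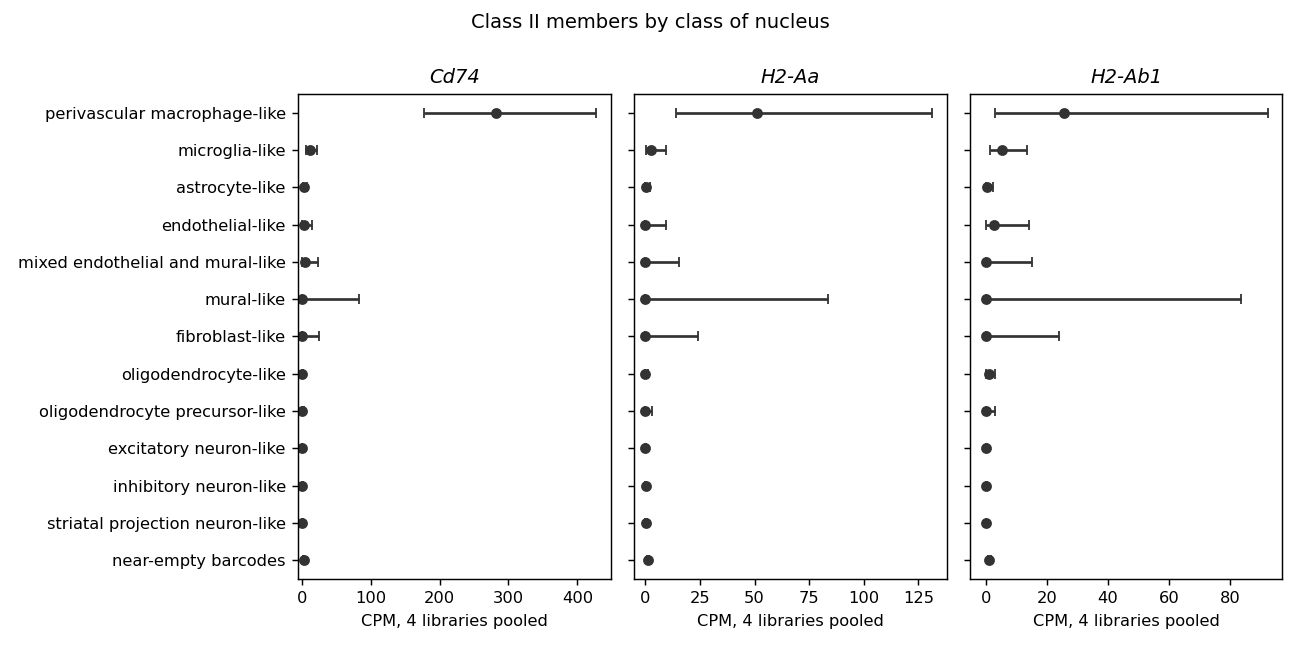
Level of *Cd74*, *H2-Aa* and *H2-Ab1* in 12 classes and in near-empty barcodes, as CPM pooled over the 4 libraries with exact 95% Poisson intervals as bars. Perivascular macrophage-like nuclei hold 22 UMIs of *Cd74* and stand highest, and the counts of *H2-Aa* (4) and *H2-Ab1* (2) are small.

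Other genes of the class II route were followed too. Of 17 class II genes, 4 lay above near-empty barcodes in all 4 libraries in microglia-like nuclei, a share near the 23.8% of all genes there. They were *Ctss*, a lysosomal protease that trims the invariant chain (285, 367, 495 and 496 CPM), *Lgmn*, another lysosomal protease (512, 628, 407 and 501 CPM), *Ifi30* and *H2-DMb1*. None of the 17 did so in endothelial-like nuclei, where 14.2% of all genes did.

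Of 3 costimulatory genes, *Cd86* was at 196, 399, 221 and 322 CPM in microglia-like nuclei and had 2 UMIs in endothelial-like nuclei. *Cd40*, the receptor that T cells engage, was at 21.3, 220, 188 and 250 CPM in endothelial-like nuclei (57 UMIs), and had 1 UMI in microglia-like nuclei. Its lowest library was again PE-low-EV replicate 1.

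The genes whose levels over the 15 classes were most like that of *B2m*, by Pearson's r on log2(CPM + 10) among 13365 genes, were *Gbp7* (0.972), *Myl12a* (0.968), *Nfkbia* (0.967), *9930111J21Rik2* (0.963) and *Myl6* (0.962). For *Cd74* they were *F13a1* (0.943), *Rbpj* (0.939), *Snx8* (0.920), *Spred1* (0.911) and *Cd53* (0.901). The classes share libraries and differ in depth, and the values are a description over 15 points.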

How the data were processed

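Nuclei from frozen brain sections were sequenced with the 10x Genomics 3′ assay, and the authors deposited raw counts of UMIs per gene and barcode, made with Cell Ranger 7.1.0 on mm10 (per the labels). Whether intronic reads were counted, and strand use, are not given in the sources used here. *B2m*, *Tap1*, *Tap2*, *Psmb8* and *Nlrc5* overlap antisense genes.

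Barcodes were called at or above a cut of 405 to 839 UMIs, set for each library. This cut was the 0.99 quantile of UMIs over the top barcodes divided by 10, with the number of top barcodes chosen to match the number called. Called barcodes were kept if 200 to 2500 genes were detected and mitochondrial UMIs made up 15% or less. Nuclei were clustered (scanpy 1.11.5, leidenalg 0.10.2) without the members and interferon genes, and clusters were named from markers. The naming thresholds and a second clustering of vessel nuclei after centring each library were set after the clusters were seen. Scored doublets were kept and removed as an alternative. Near-empty barcodes (rank 45000 to 90000) gave the free RNA level.

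Counts were summed per class and library and tested with edgeR 4.0.16 (quasi-likelihood, TMM, Benjamini-Hochberg, adjusted p below 0.1) where every library held at least 20 nuclei. DESeq2 1.42.0 was an alternative. The edgeR test was run on simulated data first. n is 2 libraries per group, and p-values measure the spread between them. The members and gene lists were chosen with earlier results of these data known. The 10 members were named throughout, genes of the wider lists as counts with values for examples among the highest in a class, and the 5 genes most like *B2m* and *Cd74* by Pearson's r among those with at least 200 UMIs. The examples *Calr*, *Cd40* and *H2-Q4* were picked after their values were seen. Replicate numbers were not used as pairs, since the labels tie them to nothing and only 2 pairs exist.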

Additional observations from a re-analysis of the deposited data

Results flagged for a closer look

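Nuclei that the comparisons did not use also held these genes. In the 2201 nuclei outside the named classes, 322 UMIs of the 7 class I members were counted (91.0 CPM), more than a count of 0 allows, and they were found in 215 nuclei. The highest levels among them were in 26 nuclei with endothelial and oligodendrocyte markers (1332 CPM, 48 UMIs) and in 21 nuclei with astrocyte and endothelial markers (768 CPM, 25 UMIs). The unnamed remainder, 1938 nuclei, was at 71.5 CPM. It included a cluster of 112 nuclei led by the vessel genes *Flt1* and *Slco1a4*, whose own level was not worked out. Class II members gave 6 UMIs in these 2201 nuclei, each in an unnamed nucleus. No treatment comparison was made in them.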

How the results depend on the processing

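The count of members past the threshold stayed at 0 in each class under every alternative, except for 3 in endothelial-like nuclei without PE-low-EV replicate 2 (0 to 3 over libraries left out) and 1, *B2m* (beside 803 genes in all), in striatal projection neuron-like nuclei without PE-low-EV replicate 1 (0 to 1). Of 239 log2 fold changes of members under alternatives, 43 had the other sign and 4 passed. In endothelial-like nuclei the values over libraries left out ran from -0.79 to 0.87 for *B2m*, -0.23 to 4.58 for *Nlrc5*, -0.11 to 1.62 for *H2-K1*, -0.47 to 1.34 for *H2-D1* and -0.76 to 1.09 for *Psmb8*. They ran from -0.85 to 0.13 for *Tap2* and from -1.43 to -0.38 for *Tap1* in the 3 of these fits that tested them. The fit without PE-low-EV replicate 2 tested neither. In microglia-like nuclei *B2m* ran from -0.14 to 0.58. With the replicate number as a block, *B2m* was at 0.034 and *Psmb8* at 0.092, with same-numbered libraries correlating at 0.04 to 0.17 in their deviations, and no call changed. The marker gate gave 0.077 for *B2m*, 0.07 for *Psmb8* and -0.019 for *H2-D1*, and nuclei with at least 1000 UMIs gave 0.048 for *B2m*. The mean level of *B2m* in microglia-like nuclei, 125 CPM, was 158 CPM with free RNA subtracted, 84.2 CPM by the marker gate, 88.2 CPM at a mitochondrial limit of 3% and 49.8 CPM in nuclei with at least 1000 UMIs, the last below near-empty barcodes. The cause was not tested. Treatment fits of endothelial-like nuclei at limits of 3% and 5% were not run, since libraries held under 5 nuclei. With 2 libraries a group and few UMIs of each member, changes of the size of the standard errors given could not be seen, and larger ones could be missed. *B2m* in striatal projection neuron-like nuclei, at 0.66 with an SE of 0.27, did not pass (edgeR adjusted p = 0.893). The absence of a call therefore sets no limit at 1 standard error.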

Other observations

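*Ciita*, the gene of the class II transactivator, was counted in neurons, and had no UMI in the endothelial-like, microglia-like and perivascular macrophage-like classes, where a count of 0 allows up to 7.73, 3.93 and 38.4 CPM. The first and last of these limits overlap the neuronal values below. In excitatory neuron-like nuclei it stood at 9.97, 5.17, 6.17 and 7.82 CPM (72, 31, 37 and 48 UMIs), with the PE-low-EV libraries given first. In inhibitory neuron-like nuclei the values were 12.2, 7.54, 7.69 and 7.96 CPM, and in striatal projection neuron-like nuclei 6.24, 4.01, 5.94 and 7.88 CPM. Near-empty barcodes held 0.321 to 0.773 CPM of *Ciita*, below each of these. In the same classes the class II members that Ciita is known to drive were close to 0 over the 4 libraries. *H2-Aa* had 1, 1 and 3 UMIs, *H2-Ab1* had 6, 1 and 0 UMIs and *Cd74* had 8, 7 and 7 UMIs. The part of neighbouring transcripts and of intronic counts in these values was not tested.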
